A study of Mus musculus with 6 samples.

Results

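The expression of 10 genes of the intestinal microvillus was followed in mouse intestinal organoids grown in control or in low glutamine medium. They are Vil1, Espn, Ezr, Myo1a, Cdhr2, Cdhr5, Ush1c, Myo7b, Eps8 and Muc13. The members were listed by symbol, with earlier results of these data known, as genes whose proteins build, anchor or coat the microvilli of the brush border, and all 10 are among the 24956 rows of the deposited expression table. RNA was sequenced in 6 libraries, with 3 replicates in control medium and 3 in medium low in glutamine. Every library came from organoids of the Apc Min genotype, a germline truncating allele of the Wnt pathway tumour suppressor Apc, so the control organoids carry it too. How much glutamine each medium held, for how long the organoids grew in it, the segment of intestine and the donors' age are not stated in the labels. Sex-linked genes, given below, differ between the groups, so medium and donor cannot be told apart. The replicates are called biological without naming animals or cultures, so a p-value reflects the spread among these libraries, which may be partly technical.

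A microvillus is a finger of apical membrane held up by a core of parallel actin filaments, and an absorptive enterocyte packs them into the brush border. Villin, espin and plastin bundle the core, ezrin and myosin 1A tie it to the membrane along its side, and EPS8 sits at its tip. Neighbouring microvilli are joined at their tips by the protocadherins CDHR2 and CDHR5, whose cytoplasmic tails are held by the intermicrovillar adhesion complex, made of harmonin (Ush1c), myosin 7B (Myo7b), ANKS4B and CALML4. Transmembrane mucins such as MUC13 cover the surface as part of the glycocalyx.

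In low glutamine medium 7 of the 10 microvillus genes fell, 2 rose and 1 did not pass the test. Espn fell most, to 0.182 of its control level, followed by Cdhr5, Myo1a and Cdhr2. Muc13, Ush1c and Vil1 fell by less, while the motor gene Myo7b and the tip gene Eps8 rose. Ezr was between 85.5 and 89.6 RPKM in control and between 91.7 and 100.01 RPKM in low glutamine and did not pass. RPKM, as the authors computed it, counts reads per kilobase of transcript and per M mapped reads. Levels of different genes set side by side rest on the transcript lengths used, which are not stated. A gene passed when its adjusted p in limma, fitted to log2(RPKM + 1) over the 11082 genes averaging 1 RPKM or more, was under 0.05. All 10 genes were above that limit.

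These counts stand against a wide change over all genes. Of all tested genes 66.4% passed in either direction, 36.1% higher and 30.3% lower, against 2 and 7 of the 10 microvillus genes. A fall of at least 1 on the log2 scale was seen in 4 of the 10 and in 4.05% of all tested genes. The groups did not overlap in all 10 members, Ezr included, and in 70.2% of all tested genes, so the absence of overlap is near the background. The median log2 fold change was -0.73 over the 10 genes and 0.03 over all tested genes. In bulk RNA, fewer cells with a brush border and less of these RNAs per cell cannot be told apart.

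**Figure D1:**
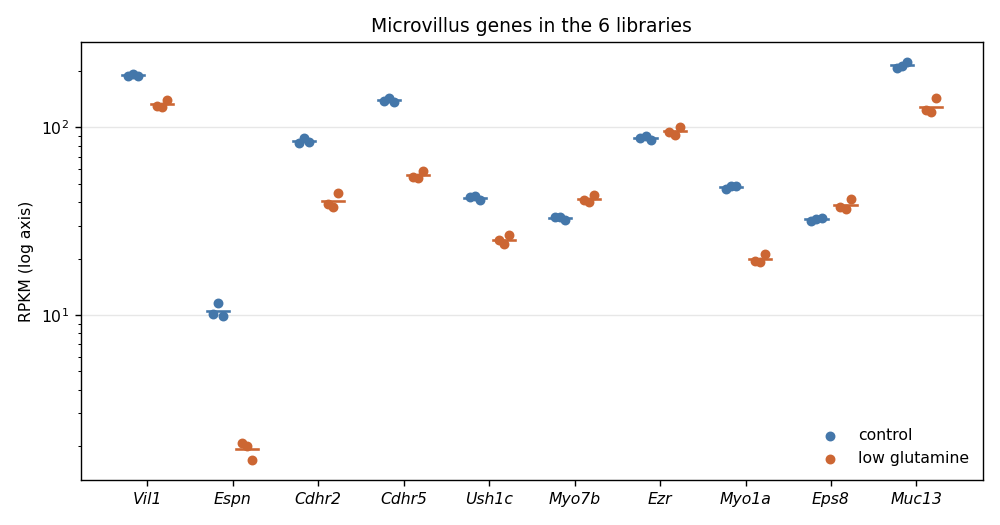
RPKM of the 10 microvillus genes on a log axis, 1 point per library, with a horizontal bar at the mean of each group of 3. The 3 low glutamine points lie below the 3 control points for Vil1, Espn, Cdhr2, Cdhr5, Ush1c, Myo1a and Muc13, and above them for Myo7b, Ezr and Eps8.

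The promoters of these genes can be read beside their values. RefSeq promoter windows of 300 bases, 250 before and 50 after an annotated start, were found for 8 of the 10 genes, 11 windows in all, because Espn has 3 and Muc13 has 2. Eps8 and Myo7b have no entry in the table used. Shown here, on the gene's own strand and on GRCm38.p6, are those of Vil1 (chr1:74409134-74409433, plus strand), Espn, the gene that fell most (chr4:152152340-152152639, minus strand), Cdhr2 (chr13:54701213-54701512, plus strand) and Ezr, which did not pass (chr17:6782731-6783030, minus strand). Capitals mark matches to the motifs searched.
Vil1: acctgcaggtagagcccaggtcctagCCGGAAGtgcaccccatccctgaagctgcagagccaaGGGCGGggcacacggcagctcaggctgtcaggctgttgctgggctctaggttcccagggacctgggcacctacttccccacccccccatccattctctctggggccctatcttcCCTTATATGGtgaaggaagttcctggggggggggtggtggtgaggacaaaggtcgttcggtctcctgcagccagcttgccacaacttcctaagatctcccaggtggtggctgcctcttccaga
Espn: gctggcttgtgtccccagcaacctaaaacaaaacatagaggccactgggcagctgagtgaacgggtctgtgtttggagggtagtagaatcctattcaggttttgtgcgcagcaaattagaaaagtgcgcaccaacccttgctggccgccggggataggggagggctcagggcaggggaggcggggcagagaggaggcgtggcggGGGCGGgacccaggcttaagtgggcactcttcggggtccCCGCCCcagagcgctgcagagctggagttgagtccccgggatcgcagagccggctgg
Cdhr2: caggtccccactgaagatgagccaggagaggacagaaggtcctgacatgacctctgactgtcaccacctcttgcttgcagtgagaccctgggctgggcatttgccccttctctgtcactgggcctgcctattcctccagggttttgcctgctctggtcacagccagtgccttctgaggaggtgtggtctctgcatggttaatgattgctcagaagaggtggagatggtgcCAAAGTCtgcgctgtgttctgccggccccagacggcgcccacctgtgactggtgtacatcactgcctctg
Ezr: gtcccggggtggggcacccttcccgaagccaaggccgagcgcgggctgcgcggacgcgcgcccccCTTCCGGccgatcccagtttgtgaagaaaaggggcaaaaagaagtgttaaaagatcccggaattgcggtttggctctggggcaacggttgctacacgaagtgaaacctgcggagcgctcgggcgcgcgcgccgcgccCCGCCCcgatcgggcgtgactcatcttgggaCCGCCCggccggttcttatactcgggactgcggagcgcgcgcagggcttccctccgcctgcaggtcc
The motifs were CAAAGTC (HNF4-type), TTTATNG (CDX-type), CTTTGAT (TCF-type), CACGTG (E-box), GGGCGG (GC box), CCGGAAG (ETS-type) and the CArG box, the site type bound by serum response factor. Each was sought on both strands. The HNF4-type letters and the reverse complement of the TCF-type letters share CAAAG and can overlap. The Vil1 window holds a CArG box that begins 73 bases before the start, with a GC box and an ETS-type match further upstream. A CArG box is found in 1.63% of all 32851 windows and in 1 of the 11 here. The HNF4-type match of Cdhr2 begins 20 bases before its start, and this motif is in 2 of the 11 windows, the other from Muc13, and in 4.44% of all windows. The Ezr window shares the ETS-type and GC box letters with Vil1. ETS-type letters are in 3 of the 11 windows (Vil1, Ezr and Ush1c) and in 8.86% of all windows, and GC boxes in 5 of the 11 and in 35.7%. The CDX-type letters are in 1 window of Espn that is not shown, and in 10.9% of all windows. TCF-type and E-box letters are in none of the 11 windows, and in 3.73% and 7.15% of all windows. A match is a description of the letters and no sign that a factor binds there, and the absence of one says only that those letters are not in the window.

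The actin bundlers come first. Vil1, encoding villin, lies at chr1:74409384-74435560 and was at 189, 193 and 189 RPKM in control replicates 1 to 3. In low glutamine replicates 1 to 3 it was at 130.0, 128 and 140.5 RPKM. All 3 low glutamine libraries were below all 3 controls, but villin RNA stayed among the most abundant of the set. Vil1 fell by 0.52 ± 0.06 (SE) on the log2 scale, 1.43-fold in RPKM (limma, adjusted p = 7.26e-06), and by 0.23 with quantile normalization (adjusted p = 3.45e-04). Espn (chr4:152120331-152152414) encodes espin, which bundles and lengthens actin cores. Its RNA was at 10.2, 11.6 and 9.87 RPKM in control and at 2.08, 1.999 and 1.69 RPKM in low glutamine. The lowest control library was thus far above the highest low glutamine library, and Espn was the least abundant of the 10 genes in both groups. Espn fell by 1.98 ± 0.07 on the log2 scale (limma, adjusted p = 1.87e-10), 5.49-fold in RPKM, and 126 of the tested genes fell further. Its value rests on an estimated 47.7 to 412 reads per kilobase of transcript in a library. Because Espn is low, its log2 fold change depends most on the pseudocount, reaching -2.40 with 0.1 and -1.17 with 5.

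Other bundlers can be set against villin within each library. The ratio of Espn to Vil1 was 0.0538, 0.0603 and 0.0522 in control and 0.0160, 0.0156 and 0.0120 in low glutamine, a 3.83-fold lower geometric mean. Pls1, plastin 1 or fimbrin, a further bundler of the brush border core, was at 107 ± 1.86 RPKM in control and 47.7 ± 1.64 RPKM in low glutamine (SD, n = 3). Pls1 fell by 1.15 on the log2 scale (limma, adjusted p = 1.62e-09), and its ratio to Vil1 went from 0.563 ± 0.0115 to 0.359 ± 0.00655. Multiplying a library by a constant leaves such ratios within it as they are, while quantile normalization does not. Of the 16 ratios computed, 14 did not overlap between the groups. The RPKM of single genes did not overlap in 70.2% of all tested genes, but no such share was computed for ratios of other gene pairs. With 3 libraries against 3, a two-sided exact permutation test cannot give less than p = 0.10, the value for each of these 14, or 0.114 after Benjamini-Hochberg adjustment over the 16, so none passed.

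Of 8 tested bundlers and villin relatives, 5 fell and 3 rose, with a median log2 fold change of -0.21. Besides Pls1, the most abundant were Lcp1 (plastin 2), Flii and Gsn (gelsolin), and all 3 fell, with log2 fold changes of -0.58, -0.21 and -0.22. The fifth that fell was Scin (scinderin, a calcium-dependent severing protein), from 17.4 ± 0.200 to 2.74 ± 0.129 RPKM. Those that rose were Pls3 (plastin 3) from 0.855 ± 0.207 to 4.70 ± 0.409 RPKM, Svil (supervillin) from 5.34 ± 0.232 to 7.90 ± 0.383 RPKM and Avil (advillin), a tuft cell marker, from 0.708 ± 0.148 to 1.87 ± 0.139 RPKM. Plastin RNAs thus moved in both directions, with Pls1 still far above Pls3 in low glutamine. Espnl, the espin-like gene, was below the limit for testing, as were Vill, Capg and Fscn1. These untested genes all had a higher mean in low glutamine than in control. With no filter on low values 7 of the list rose and 5 fell. The 5 that fell became 3 when libraries were rescaled to a common sum without Rn45s, a ribosomal RNA precursor.

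The tip-link protocadherins both lost RNA. Cdhr2 (chr13:54701463-54736662) was at 82.9, 87.8 and 84.2 RPKM in control and at 39.3, 37.6 and 44.5 RPKM in low glutamine. The low glutamine mean was 0.477 of the control mean, with no overlap. Cdhr2 fell by 1.05 ± 0.07 on the log2 scale, 2.10-fold in RPKM (limma, adjusted p = 2.89e-08). Cdhr5 (chr7:141269080-141276795), its binding partner across the gap between microvilli, was at 139, 144 and 136 RPKM in control and at 54.4, 53.8 and 58.4 RPKM in low glutamine. It fell by 1.32 ± 0.06 on the log2 scale, 2.51-fold in RPKM (limma, adjusted p = 8.16e-10). Cdhr5 was above Cdhr2 in every library, and its ratio to Cdhr2 went from 1.67, 1.64 and 1.62 to 1.39, 1.43 and 1.31. The ratios did not overlap. The test of their difference could not pass, since its two-sided exact permutation p = 0.1 is the smallest possible with 3 libraries against 3.

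The scaffold and the motor that hold the tails of these cadherins moved in opposite directions. Ush1c (chr7:46195350-46238490), encoding harmonin, was at 42.4, 42.9 and 41.1 RPKM in control and at 25.1, 23.9 and 26.7 RPKM in low glutamine. The groups were well apart, and Ush1c fell by 0.72 ± 0.06 on the log2 scale, 1.67-fold in RPKM (limma, adjusted p = 2.15e-07). Myo7b (chr18:31959234-32036931), the motor that carries the complex to the tips, was at 33.3, 33.2 and 31.9 RPKM in control and at 41.2, 40.2 and 43.9 RPKM in low glutamine. Here all low glutamine libraries were the higher ones. Myo7b rose by 0.34 ± 0.05 on the log2 scale, 1.27-fold in RPKM (limma, adjusted p = 1.48e-04), and by 0.24 to 0.49 over all alternatives run.

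Ratios within the adhesion complex can be read in the same way. None of them could pass the exact permutation test, whose p cannot be under 0.10 with 3 libraries against 3. The ratio of Myo7b to Cdhr2 was 0.402, 0.379 and 0.379 in control and 1.05, 1.07 and 0.985 in low glutamine, a 2.67-fold higher geometric mean, and the ratio of Myo7b to Ush1c went from a mean of 0.780 ± 0.00626 to 1.65 ± 0.0211 (SD, n = 3). Motor RNA was thus below scaffold RNA in each control library and above it in each low glutamine library. The remaining subunits both fell. Anks4b, a scaffold that binds harmonin and the motor, was at 47.9, 47.9 and 49.7 RPKM in control and at 21.4, 20.7 and 22.7 RPKM in low glutamine, a fall of 1.13 ± 0.05 on the log2 scale (limma, adjusted p = 2.12e-09). Its ratio to Cdhr2 overlapped between groups, at 0.572 ± 0.0228 and 0.535 ± 0.0215 (two-sided exact permutation p = 0.2, adjusted over the 16 ratios 0.2). Calml4, the calmodulin-like light chain of myosin 7B, fell by 0.33 ± 0.07 on the log2 scale, from 227 ± 5.31 to 181 ± 16.8 RPKM (limma, adjusted p = 0.00137). In relation to Cdhr2 it went from 2.68 ± 0.131 to 4.48 ± 0.0169. With quantile normalization 1 of these remaining subunits fell rather than 2.

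**Figure D2:**
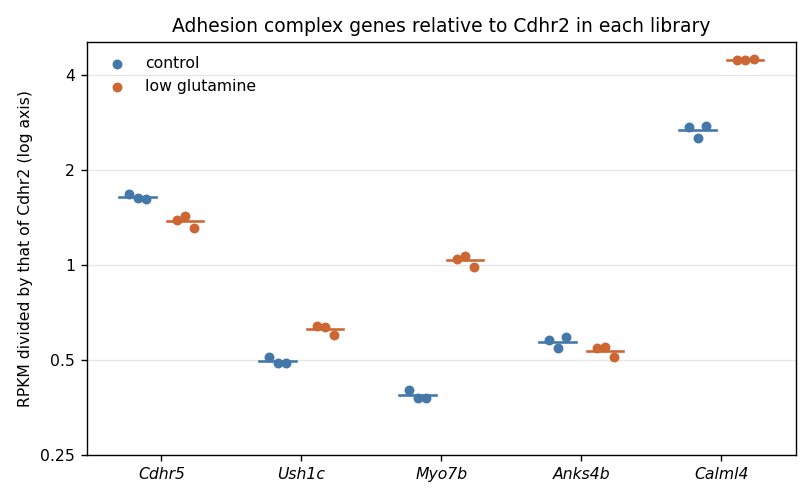
RPKM of 5 adhesion complex genes divided by that of Cdhr2 in the same library, on a log axis, 1 point per library, with a horizontal bar at the group mean. Myo7b moves from 0.387 to 1.03 and Calml4 from 2.68 to 4.48, while the points of Anks4b overlap between the media.

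Several of these proteins have relatives in the stereocilia of hair cells. Of 10 such stereocilia genes, 8 were below the limit for testing, among them the tip-link cadherin genes Cdh23 and Pcdh15, and 3 of the 10 were at 0 in every library. Tprn (taperin) fell from 20.2 ± 1.05 to 10.7 ± 0.502 RPKM, by 0.86 on the log2 scale. Whrn (whirlin) was at 4.58 ± 0.334 and 5.18 ± 0.227 RPKM (limma, adjusted p = 0.0464), a call lost in 8 of the alternatives. Of the other cadherins tested, Cdh17 (liver-intestine cadherin) fell by 0.81 and Cdh1 (E-cadherin) rose by 0.40 on the log2 scale. Cdh17 went from 255 ± 14.6 to 145 ± 18.2 RPKM and Cdh1 from 165 ± 6.83 to 219 ± 18.5 RPKM, so the order of the pair was inverted.

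Of the genes that tie the core to the membrane, Myo1a fell and Ezr did not pass. Myo1a (chr10:127703436-127720940), encoding the brush border myosin that bridges the core and the membrane, was at 47.1, 48.7 and 49.0 RPKM in control and at 19.4, 19.3 and 21.1 RPKM in low glutamine. The 3 low glutamine libraries were close to each other and far below the controls. Myo1a fell by 1.24 ± 0.05 on the log2 scale, 2.43-fold in RPKM (limma, adjusted p = 9.91e-10), and its ratio to Vil1 went from 0.253 ± 0.00501 to 0.1497 ± 0.000595. Ezr (chr17:6738131-6782780), the main ERM (ezrin, radixin, moesin) protein of intestinal epithelium, was at 87.8, 89.6 and 85.5 RPKM in control and at 95.0, 91.7 and 100.01 RPKM in low glutamine. The low glutamine libraries were all above the controls, by a narrow margin. The log2 difference was 0.12 ± 0.06 (limma, adjusted p = 0.0706). Relative to Vil1, Ezr went from 0.460 ± 0.00741 to 0.719 ± 0.0102.

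The call on Ezr depends on how the libraries are scaled. Its log2 difference was 0.25 (limma, adjusted p = 1.50e-04) with RPKM rescaled to a common sum, 0.28 (adjusted p = 4.37e-05) when Rn45s was left out of that sum, 0.33 (adjusted p = 2.12e-05) with quantile normalization and 0.03 (adjusted p = 0.405) with median-of-ratios scaling. Rn45s was at 1898 to 6680 RPKM in control and 6788 to 12252 RPKM in low glutamine, and the value without it is the one given above. The other ERM genes, Rdx (radixin) and Msn (moesin), were below the limit for testing in these organoids.

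Of 7 tested partners, regulators and kinases of ezrin, 4 fell, 1 rose and 2 did not pass, with a median of -0.32 on the log2 scale. Slc9a3r1, the scaffold NHERF1 that binds ezrin beneath the membrane, fell from 64.4 ± 5.86 to 51.2 ± 1.24 RPKM. Podxl (podocalyxin, a sialomucin linked to ezrin) fell by 1.35 on the log2 scale, from 11.2 ± 0.334 to 3.80 ± 0.299 RPKM. Pdzd3 and Pdzk1, further PDZ scaffolds of the apical membrane, also fell. Slk, a kinase that phosphorylates ERM proteins, rose from 13.3 ± 0.538 to 17.3 ± 0.689 RPKM. Nf2 (merlin) was at 16.6 ± 0.392 and 16.1 ± 0.544 RPKM, and Slc9a3r2 was at 1.11 ± 0.144 and 0.948 ± 0.0725 RPKM. The 1 that rose became 2 with libraries rescaled to a common sum. With no filter on low values 4 rose and 4 fell. The 4 that fell became 6 with median-of-ratios scaling.

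Eps8, encoding the capping and bundling protein of the microvillus tip, rose. Eps8 (chr6:137477245-137649397) was at 31.6, 32.6 and 32.9 RPKM in control and at 37.7, 36.8 and 41.4 RPKM in low glutamine. No low glutamine library was as low as a control. The rise was 0.25 ± 0.06 on the log2 scale, 1.19-fold in RPKM (limma, adjusted p = 0.00238), and lay between 0.15, with median-of-ratios scaling, and 0.40, with libraries rescaled without Rn45s, over the alternatives. Its ratio to Vil1 went from 0.170 ± 0.00356 to 0.291 ± 0.00401.

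Among 13 other genes of the tip complex, of capping and of actin nucleation, 8 fell, 2 rose and 3 did not pass, and the median was -0.18. Eps8l3, an Eps8 relative, fell from 85.8 ± 3.24 to 63.9 ± 1.39 RPKM, opposite in direction to Eps8. Twf1 (twinfilin 1) fell from 162 ± 9.28 to 127 ± 3.60 RPKM, and Capza1 and Capzb, subunits of the actin capping protein, had log2 fold changes of -0.22 and -0.18, calls lost in 6 and 9 of the 14 alternatives. The 2 that rose were Eps8l1 (from 0.542 ± 0.0167 to 1.799 ± 0.1003 RPKM) and Baiap2 (from 3.62 ± 0.347 to 7.07 ± 0.259 RPKM), an I-BAR protein that binds EPS8. Baiap2l1, Twf2 and Abi1 did not pass. The 8 that fell became 5 without low glutamine replicate 1 or without low glutamine replicate 2, and 3 with quantile normalization.

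Muc13 (chr16:33794037-33819929), the transmembrane mucin of the set, was at 208, 213 and 223 RPKM in control and at 123, 120.4 and 143 RPKM in low glutamine. It was the most abundant of the 10 genes in every control library, and the groups were far apart. Muc13 fell by 0.73 ± 0.07 on the log2 scale, 1.67-fold in RPKM (limma, adjusted p = 1.83e-06), and by 0.46 with quantile normalization (adjusted p = 6.20e-05). Muc4, a further transmembrane mucin, rose from 1.28 ± 0.0977 to 5.96 ± 0.404 RPKM, by 1.61 on the log2 scale. Even so it stayed far below Muc13, at a ratio of 0.00595 ± 0.000261 in control and 0.0463 ± 0.00119 in low glutamine. Of 8 further transmembrane mucin symbols sought, only 3 were among the deposited rows. Besides Muc4 these were Muc1 and Muc20, both below the limit for testing.

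**Figure D3:**
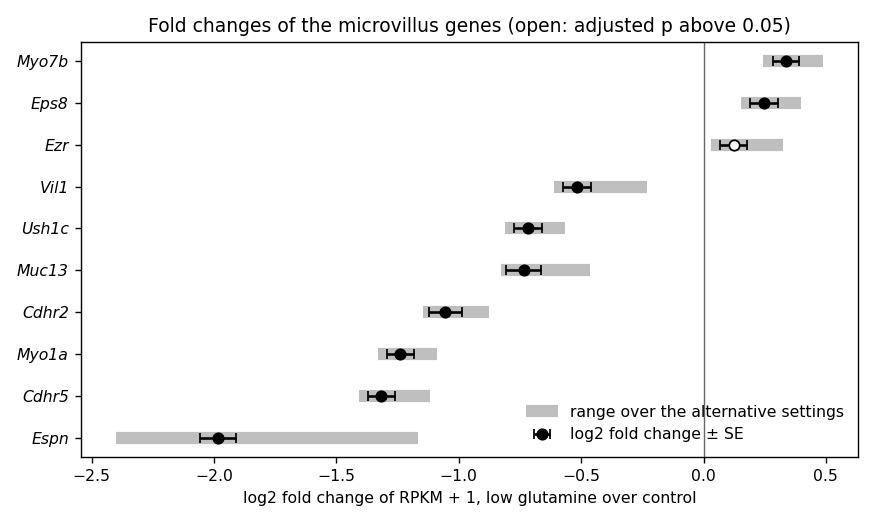
Log2 fold change of RPKM + 1, low glutamine over control, for each of the 10 genes, with the SE as a black bar and the range over the alternative settings as a grey bar. Espn lies at -1.98 with the widest range, and Ezr, drawn open, is the gene whose adjusted p is above 0.05.

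The order of mean levels within the set was not the same in the 2 media. In control the means ran Muc13, Vil1, Cdhr5, Ezr, Cdhr2, Myo1a, Ush1c, Myo7b, Eps8 and Espn from high to low, and the ranges of neighbours overlapped for Ezr with Cdhr2 and for Myo7b with Eps8. In low glutamine the order was Vil1, Muc13, Ezr, Cdhr5, Myo7b, Cdhr2, Eps8, Ush1c, Myo1a and Espn. There the ranges overlapped for Vil1 with Muc13, for Myo7b with Cdhr2 and for Cdhr2 with Eps8. Myo1a went from rank 6 to rank 9 and Myo7b from rank 8 to rank 5.

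Summed over the 10 genes, RPKM was 871, 896 and 883 in control and 567, 554 and 621 in low glutamine. The share of this sum held by Ezr went from 9.92% ± 0.214 to 16.5% ± 0.329, that of Myo7b from 3.72% ± 0.105 to 7.19% ± 0.109 and that of Eps8 from 3.67% ± 0.0548 to 6.65% ± 0.0160 (SD, n = 3). Cdhr5 went from 15.8% ± 0.314 to 9.57% ± 0.156, Espn from 1.19% ± 0.0937 to 0.333% ± 0.0534 and Myo1a from 5.46% ± 0.0742 to 3.43% ± 0.0443. Vil1 held nearly the same part in both media, 21.6% ± 0.141 and 22.9% ± 0.262, since its fall was close to that of the sum.

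**Figure D4:**
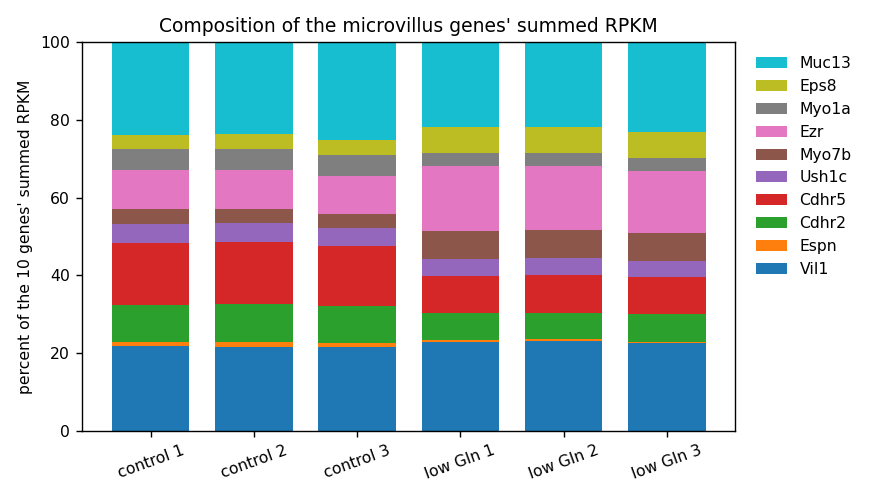
Percent of the summed RPKM of the 10 genes held by each gene, 1 stacked bar per library, from 0 to 100. Ezr widens from about 9.92% to 16.5% and Cdhr5 narrows from 15.8% to 9.57%, with bars of the same medium nearly alike.

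Motor and spectrin genes of the apical cytoplasm and terminal web did not share the direction of Myo1a or of Myo7b. Of 12 tested, 4 rose, 4 fell and 4 did not pass, with a median of 0.08. The tested spectrin genes were among those that did not pass. Myo1d, a class I myosin of the brush border like Myo1a, fell from 78.0 ± 2.71 to 47.5 ± 1.38 RPKM. Myh9, a non-muscle myosin II heavy chain, rose from 66.2 ± 1.55 to 99.3 ± 0.779 RPKM, while its relative Myh14 fell from 35.0 ± 1.77 to 24.9 ± 0.298 RPKM. Myo7a, the relative of Myo7b that works in stereocilia, fell from 4.77 ± 0.0599 to 1.72 ± 0.0709 RPKM, opposite to Myo7b. Myo6 was at 41.8 ± 1.46 and 41.4 ± 1.04 RPKM and did not pass. The 4 that rose became 8 with quantile normalization or with libraries rescaled to a common sum.

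Of 10 genes of apical trafficking and of inherited microvillus or tufting disease, 5 fell, 1 rose and 4 did not pass. Rab8a and Rab11a, GTPases of apical transport, had log2 fold changes of -0.44 and -0.19, both past the test, the call on Rab11a being lost in 7 of the alternatives. Epcam, whose loss gives tufting enteropathy, rose from 385 ± 14.3 to 490.1 ± 10.5 RPKM, and Spint2 was at 334 ± 29.3 and 364 ± 12.4 RPKM without passing. The 5 that fell became 3 without control replicate 1 or without low glutamine replicate 2, and 8 with median-of-ratios scaling. Over all 9 lists of structural and trafficking genes, 57 genes were tested, of which 14 rose, 30 fell and 13 did not pass, with a median of -0.17 against -0.73 for the 10 microvillus genes. Of all tested genes 36.1% rose and 30.3% fell. The list counts depend on scaling, as do those over all genes. With libraries rescaled to a common sum 22 rose and 25 fell, against 5689 and 2543 over all genes. When that sum left out Rn45s 22 rose and 22 fell, against 6040 and 2385 over all genes. With median-of-ratios scaling 13 rose and 37 fell, against 3273 and 4495 over all genes.

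**Figure D5:**
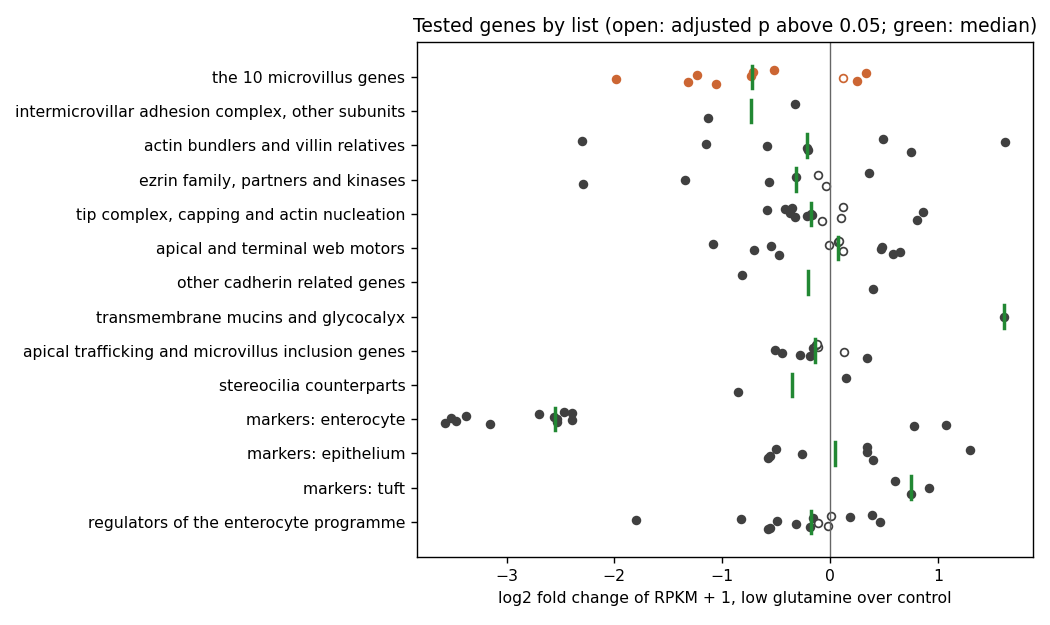
Log2 fold change of RPKM + 1 for each tested gene, 1 row per gene list, with the median as a green bar and genes above an adjusted p of 0.05 drawn open. The 10 microvillus genes have a median of -0.73, between the enterocyte markers at -2.55 and the other structural lists, apart from the 2 remaining adhesion complex subunits at -0.73.

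Markers of the absorptive cell that carries the brush border moved with the falling genes. Of 14 enterocyte markers 12 fell and 2 rose, with a median of -2.55 on the log2 scale, and their summed RPKM was 2707 to 2907 in control and 744 to 824 in low glutamine. Fabp1 (fatty acid binding protein) fell from 828 ± 88.9 to 73.9 ± 9.95 RPKM, Sis (sucrase-isomaltase) from 422 ± 12.4 to 39.8 ± 1.83 RPKM and Apoa4 from 367 ± 36.2 to 30.0 ± 1.16 RPKM. The 2 that rose, Anpep (aminopeptidase N) and Alpi (intestinal alkaline phosphatase), encode enzymes of the brush border membrane. Anpep went from 220.4 ± 4.95 to 466 ± 21.6 RPKM and Alpi from 11.4 ± 0.621 to 20.3 ± 0.629 RPKM. Set against Krt20, a keratin of differentiated villus cells, Vil1 had a 4.32-fold higher geometric mean in low glutamine, with ratios of 2.61 ± 0.0284 and 11.3 ± 0.811, with no overlap between the groups. The ratio of Espn to Krt20 overlapped between the groups, at 0.145 ± 0.00969 and 0.164 ± 0.0240 (two-sided exact permutation p = 0.2). The part of enterocyte number in the falls of the microvillus genes was not tested.

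General epithelial markers split evenly, with 4 of 8 higher and 4 lower, and their summed RPKM was 2049 to 2264 in control and 2577 to 2659 in low glutamine. Krt8 went from 562 ± 58.4 to 711 ± 37.4 RPKM, Krt18 from 233 ± 14.5 to 573 ± 15.2 RPKM and Krt19 from 399 ± 5.05 to 281 ± 10.7 RPKM. Relative to Epcam, Vil1 went from 0.495 ± 0.0155 to 0.271 ± 0.00832 and Ezr from 0.227 ± 0.00340 to 0.195 ± 0.00440, so Ezr was lower on this scale and higher on the RPKM scale. Tuft cells also carry villin, and 9 of their 10 markers were in the table. Their summed RPKM was 3.30 to 4.11 in control and 8.50 to 9.06 in low glutamine, and the 3 tested, Pou2f3, Trpm5 and Avil, rose, with Il25 at 0 in control. Of 9 stromal markers none reached the limit for testing, and their sum was 0.321 to 0.391 RPKM in control and 0.131 to 0.186 RPKM in low glutamine, with Col3a1 and Lum at 0 in all libraries. The 8 immune markers summed to 0.625 to 0.841 RPKM in control and 1.86 to 2.21 RPKM in low glutamine, nearly all of it Cd68, with Adgre1 at 0 in all libraries. The part of tuft cells in the results was not tested.

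Of 14 tested transcription regulators of the enterocyte programme 8 fell, 3 rose and 3 did not pass, with a median of -0.17. Hnf4a, a nuclear receptor of intestinal differentiation, fell from 181 ± 4.59 to 128 ± 4.84 RPKM. Cdx2, the intestinal homeobox factor, fell from 97.1 ± 4.67 to 65.6 ± 0.986 RPKM. Elf3 and Klf5 also fell, with log2 fold changes of -0.18 and -0.16, calls lost in 5 and 6 of the 14 alternatives. The 8 that fell became 5 with libraries rescaled to a common sum, with or without Rn45s. Srf, which encodes serum response factor, and Maf were among those that rose, the call on Maf being lost in 7 of the alternatives. Srf went from 8.32 ± 0.687 to 11.2 ± 0.234 RPKM.

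The gene whose pattern over the 6 libraries was most like that of Vil1 was Mtmr4 (Pearson r = 0.9997 on log2(RPKM + 1)), followed by Plcb3, Cdhr2, Abcd3 and Ssx2ip. Cdhr2 is thus the closest of the microvillus genes. These 6 points fall into 2 media, and 720 of 10616 genes compared had an r of at least 0.99. Within the low glutamine group, replicate 3 had the highest value for 9 of the 10 microvillus genes, Espn being the exception, and for 66.6% of all tested genes.

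Facts of the whole series bear on all of these comparisons. The estimated depth was 24.4 to 35.4 M reads per library, and every member except Espn rested on at least 595 reads per kilobase of transcript. Xist, transcribed from the inactive X chromosome of female cells, was at 83.1 to 90.5 RPKM in control and 0.0237 to 0.0350 RPKM in low glutamine. Eif2s3y, on the Y chromosome, was at 0 RPKM in control and 25.2 to 31.4 RPKM in low glutamine. The groups thus seem to come from donors of different sex, and medium, donor and sex cannot be told apart. Exons of Vil1, Ezr, Ush1c and Muc13 overlap those of a gene on the other strand by 49, 4, 120.0 and 184 bases, and no label says whether the counting used strand.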

How the data were processed

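RNA was measured by sequencing in 6 libraries. The deposited values are RPKM computed by the authors, 1 column per library. Tools listed without role or order in the submitters' processing notes are HISAT2 2.0.4, CASAVA 1.8 and Partek, with the mm10 genome. Strandedness, annotation and counting rule are not stated there. From these values limma 3.58.1 in R 4.3.3 was fitted to log2(RPKM + 1), with a variance trend and no covariate, for the 11082 genes averaging 1 RPKM or more (13874 were not tested). P-values are two-sided, adjusted by Benjamini-Hochberg over all tested genes, with a threshold of 0.05. Fold changes on this scale understate the change of low genes. The fit was tested on simulated data. Ratios were compared by exact permutation (Python 3.11.15, scipy 1.17.1).

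Depth was estimated from the lowest values. At the estimated depths 83.6% to 88.0% of low values checked were whole reads within 0.02, including values that set the depth.

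The members and lists were chosen with earlier results of these data known. Named were all 10 members, the 4 most abundant tested genes of each other list, remainders of 3 or fewer and the 5 genes most like Vil1. Scin, Pdzd3, Pdzk1, Pls3, Svil, Avil, Myo7a and Alpi are further names, some chosen after their values were seen. Some genes of the lists are not reported here.

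Replicate numbers recur in both groups. Same-numbered libraries deviated from their group means with correlations of 0.15, 0.25 and 0.57 (numbers 1, 2 and 3), each above 0.1, so a fit with the replicate number as a block was run. Control replicate 2 and low glutamine replicate 1 correlated at 0.36. Coordinates are RefSeq gene bounds on GRCm38.p6, the mm10 build. Other alternatives were pseudocounts of 0.1 and 5, no filter, 3 scalings, each library left out in turn and, added after seeing the data, scaling without Rn45s.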

Additional observations from a re-analysis of the deposited data

How the results depend on the processing

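In each of the 14 alternatives 7 of the 10 microvillus genes fell, and Myo7b and Eps8 rose. Ezr rose as well in 3 of them, rescaling to a common sum, the same without Rn45s (an alternative chosen after seeing the data) and quantile normalization. With the replicate block, which pairs the libraries by number, 7 members fell and 2 rose, and over all genes 4192 rose and 3544 fell, against 4001 and 3360 without it. The block changed no call on a member. Rescaled without Rn45s, 6040 of all tested genes rose. The share of higher genes among all calls was 54.4%, and 69.1% after rescaling to a common sum, 71.7% when that sum left out Rn45s and 42.1% under median-of-ratios scaling, with median log2 fold changes over all genes of 0.03, 0.14, 0.17 and -0.05. The log2 fold change of Vil1 ranged from -0.61 to -0.23. Counts of genes higher or lower in the other lists moved by more than 1.5 times 39 times, in 34 pairs of list and alternative. Depth limits Espn most among the members.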
